A study of Mus musculus with 9 samples.

Results

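The genes described here encode the proteins of the cytosolic ribosome. They were taken by name alone, as every gene called Rpl or Rps with a number and at most a closing a, x or l, together with Rplp0 to Rplp2 and Rpsa, so no measured value entered the choice. This gave 82 of the 49585 genes in the deposited tables, 50 of the large subunit, with the 3 stalk proteins among them, and 32 of the small subunit. Of these, 80 had enough reads to be tested, whereas Rps4l and Rpl10l had 0 reads in each of the 9 libraries. Pseudogenes lie outside the name rule, as do Fau and Rpl36al, which encode ribosomal proteins under other names.

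RNA was sequenced from the skin of 3 kinds of mice, with 3 libraries each: wild-type C57BL/6, wild-type BALB/c, and C57BL/6 mice labelled IL-6 -/-, which should lack interleukin-6. All were bought from one supplier at 4 to 5 weeks of age, rested for 2 weeks, began the experiment at 6 weeks, were shaved on day 0, had no treatment for 7 days and gave whole skin on day 8. The protocol names 3 C57BL/6, 3 BALB/c and 6 IL-6 KO animals and does not tie a library to an animal, so a p-value here reflects how far these libraries vary, in part perhaps for technical reasons. Neither the sex of the animals nor the form of the disrupted allele is stated in the labels.

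Total exon reads ran from 6083876 to 6882193 in C57BL/6, from 6115739 to 6242332 in BALB/c and from 3843953 to 4476346 in those labelled IL-6 KO. Il6 itself had 2, 1 and 0 reads in C57BL/6, 0, 2 and 0 in BALB/c, and 6, 24 and 1 under the IL-6 KO label, so the counts do not show the loss that the label states, and these are called the KO-labelled libraries below. Levels are given in CPM, exon reads per library after scaling to a common total. Keratinocyte markers were high in every library (summed level of 8 markers from 10474 to 24583 CPM). Of these 8, Krt15 alone was lower in KO-labelled libraries by the edgeR test described below. It had 2470 ± 980 CPM (SD) in C57BL/6, 1292 ± 279 in BALB/c and 493 ± 204 in KO-labelled libraries. Replicates also differed within that group, where Krt10 had 5423, 41769 and 12027 reads. The marker lists for other tissues differed: 10 skeletal muscle markers summed to between 46636 and 87703 CPM for C57BL/6, 23810 and 51691 for BALB/c, and 8224 and 9386 for KO-labelled libraries, and 12 hair matrix and shaft markers to at most 131 in C57BL/6, at most 30.8 in BALB/c and 3426 to 17896 in KO-labelled libraries. The tables themselves also differ by group. Those of BALB/c give an exon length for 17474 gene entries without an annotated transcript and those of the other groups for 0 of them, and those labelled IL-6 KO lack the gene biotype, so a difference between groups and a difference in how their tables were made cannot be told apart.

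A ribosome joins a small subunit, which reads the messenger RNA, to a large subunit, which forms the peptide bond, and most of its proteins occur once in each ribosome. Ribosomal protein messages are short, abundant and usually start with a pyrimidine tract, through which mTOR signalling sets their translation. They have been copied back into the genome many times by reverse transcription. Such processed copies lack introns, differ from the parent message by few bases, and can draw reads that would fit the parent, or the reverse.

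In the reference genome (GRCm38, GENCODE vM21 annotation), 71 of the 82 genes had at least 1 near-identical copy with an entry of its own in the tables, defined by at least 95% identity over at least 200 bases. The median was 4.5 copies per gene, and Rpl21 had the most, 56. The stretches below show how little separates 4 genes from copies whose own entry or host gene had more reads in BALB/c. Each pair is the same 90 bases of the coding sequence, 5′ to 3′, with the gene first, and capitals mark the bases that differ between gene and copy.
Rplp0: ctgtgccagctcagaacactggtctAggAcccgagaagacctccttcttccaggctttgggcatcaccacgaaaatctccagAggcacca
Gm8730: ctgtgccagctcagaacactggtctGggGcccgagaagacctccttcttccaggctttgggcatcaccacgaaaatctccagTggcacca
Rpl26: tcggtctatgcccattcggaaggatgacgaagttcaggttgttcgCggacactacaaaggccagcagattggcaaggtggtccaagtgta
Gm15772: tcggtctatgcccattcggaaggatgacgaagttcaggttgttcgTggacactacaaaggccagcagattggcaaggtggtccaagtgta
Rpl29: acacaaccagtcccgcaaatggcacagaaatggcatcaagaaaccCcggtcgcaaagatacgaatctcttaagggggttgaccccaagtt
Gm8210: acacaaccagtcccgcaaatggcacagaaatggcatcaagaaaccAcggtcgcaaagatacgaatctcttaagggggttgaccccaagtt
Rps18: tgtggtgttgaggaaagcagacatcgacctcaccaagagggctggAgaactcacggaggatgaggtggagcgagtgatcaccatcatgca
Gm11361: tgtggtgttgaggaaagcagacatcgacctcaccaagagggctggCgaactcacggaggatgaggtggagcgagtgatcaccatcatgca

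Over their whole aligned length, Rplp0 and Gm8730 (chromosome 8, 102864845 to 102865798) differ at 12 of 954 bases. Rpl26 and Gm15772 (chromosome 5, 3236431 to 3236868) differ at 2 of 438 bases, and Rpl29 and Gm8210 (chromosome 1, 43189156 to 43189638) at 3 of 483. For Rps18 and Gm11361 (chromosome 13, 28257528 to 28258134) the count is 4 of 540. Gm8210 lies inside an intron of Fhl2, so a read there can count as a read of that gene. The copies' stretches lie at chr8:102865345-102865434 (minus strand) for Gm8730, chr5:3236562-3236651 (plus) for Gm15772, chr1:43189182-43189271 (plus) for Gm8210 and chr13:28257761-28257850 (plus) for Gm11361. A read that covers no differing base fits the gene and the copy equally.

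Promoters were read from RefSeq (GRCm38.p6), which gave a start site for 60 of the 82 genes. Within 20 bases either side of the start, on the sense strand, 3 short pyrimidine stretches were searched. CTTTC was present in 31.7% of the genes, against 6.44% of all 27025 genes of the table. The share for CTTCC was 15 of 60 genes against 10.3% of all, and that for CTTTT was 11.7% against 5.03%. At least 1 of them was present in 31 of the 60 genes (51.7%), against 19.7% of all, and a base can belong to 2 overlapping stretches. The 5 windows below cover those 40 bases for 4 genes that hold such a stretch, in capitals, and for Rpl3l, the muscle form of Rpl3, which holds none.
Rpl35a: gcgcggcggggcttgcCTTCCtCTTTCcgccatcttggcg
Rps18: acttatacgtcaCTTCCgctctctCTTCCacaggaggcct
Rps6: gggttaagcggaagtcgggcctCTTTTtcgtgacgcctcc
Rps10: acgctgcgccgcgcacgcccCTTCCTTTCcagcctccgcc
Rpl3l: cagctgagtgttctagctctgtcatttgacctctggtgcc

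These windows lie at chr16:33056462-33056501 (plus strand) for Rpl35a, chr17:33955646-33955685 (minus) for Rps18, chr4:86857348-86857387 (minus) for Rps6, chr17:27635225-27635264 (minus) for Rps10 and chr17:24727806-24727845 (plus) for Rpl3l. In the 300 bases from 250 before to 50 after the start, the ETS core CCGGAAG was found on either strand in 41.7% of the genes, against 9.93% of all. The YY1 core AAGATGGC was found in 8.33% against 3.19%, and the letters of a TATA box, TATAAA, in 6 of the 60 genes against 15.7% of all. A match describes the letters of the window only.

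Per exon length, the level of a gene was read as RPKM, which divides exon reads by exon length and by the total exon reads of the library, averaged over the 9 libraries. Rplp1, an acidic protein of the stalk, had the highest level, 2489, followed by Rps15 at 1027, Rplp0, the stalk base, at 976, and Rps24 and Rps26, both at 927. The ranges over libraries of these last 4 overlapped, so their order is not settled, while the lowest library of Rplp1 (1886) lay above the highest of each (1453 for Rplp0). The lowest levels belonged to Rpl6l at 1.09, Rpl39l at 7.94, Rpl27 at 13.1, Rpl10 at 64.6 and Rps15a at 70.2. Rpl6l is a relative of Rpl6. Rpl27 and Rpl10 are core proteins of the large subunit, and the reads at their copies are given further on. Exon length enters this scale: Rps15a has 6270 bases of annotated exon and Rps26 has 447.

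**Figure D1:**
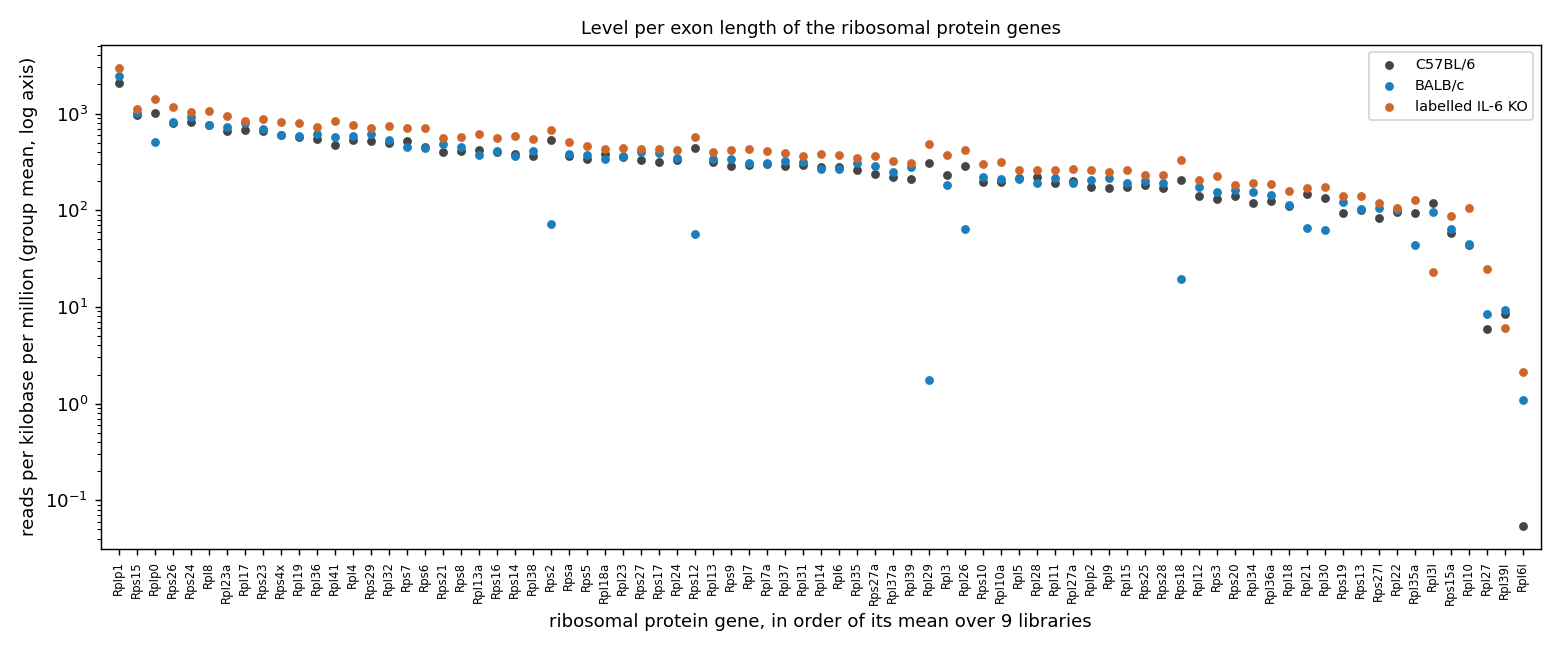
Level per exon length (RPKM, group mean over 3 libraries, log axis) of 79 of the 80 ribosomal protein genes with reads, ordered by the mean over 9 libraries, with 1 point per group. Rplp1 leads, and BALB/c points of Rpl29, Rps18, Rps2, Rps12 and Rpl26 hang below those of the other groups.

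Of all reads in these genes, 56.9% ± 0.0199 (SD, n = 3 libraries) were placed uniquely in C57BL/6, 55.0% ± 0.229 in BALB/c and 57.9% ± 0.318 in KO-labelled libraries. Over all genes the unique share was 84.5% to 87.9% per library. The 3 groups did not overlap, but 3 libraries against 3 cannot give an exact two-sided permutation p below 0.1, and each pair of groups gave 0.1 (0.214 adjusted over the 15 tests of library shares). Over all 9 libraries the unique share was lowest in Rps6, a target of S6 kinase, at 0.238%, followed by Rps12 at 0.372%. By group, Rps6 had 0.163% in C57BL/6, 0.347% in BALB/c and 0.212% in KO-labelled libraries, and Rps12 had 0%, 0% and 0.864%. The share was also below 3% in every group in Rps27, Rps23, Rpl5 and Rps27a, so the level of these genes rests almost wholly on reads that fit several places. In contrast, all reads of Rpl3l, Rpl39l and Rps27l were unique.

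BALB/c was compared with C57BL/6 to show how the strains differ. In BALB/c, 8 of the 80 genes tested were lower and 1 was higher (edgeR's quasi-likelihood test, Benjamini-Hochberg adjustment over all 14415 genes tested, adjusted p under 0.05). Among all genes, 1.78% were lower and 1.63% higher, 3.41% in all. The strains did not overlap in 17 genes that were higher and 13 that were lower in BALB/c, as in 14.6% and 15.6% of all genes. The median log2 fold change of the 80 was 0.04, against −0.01 over all genes, and 70 of the 80 lay within 0.5 of 0. The share of exon reads that fell in these genes was 3.65%, 4.48% and 3.78% in C57BL/6 and 3.70%, 3.68% and 4.18% in BALB/c (exact permutation p = 0.7, adjusted 0.808). The set as a whole thus had near-equal levels in the strains, and a few genes stood far below.

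**Figure D2:**
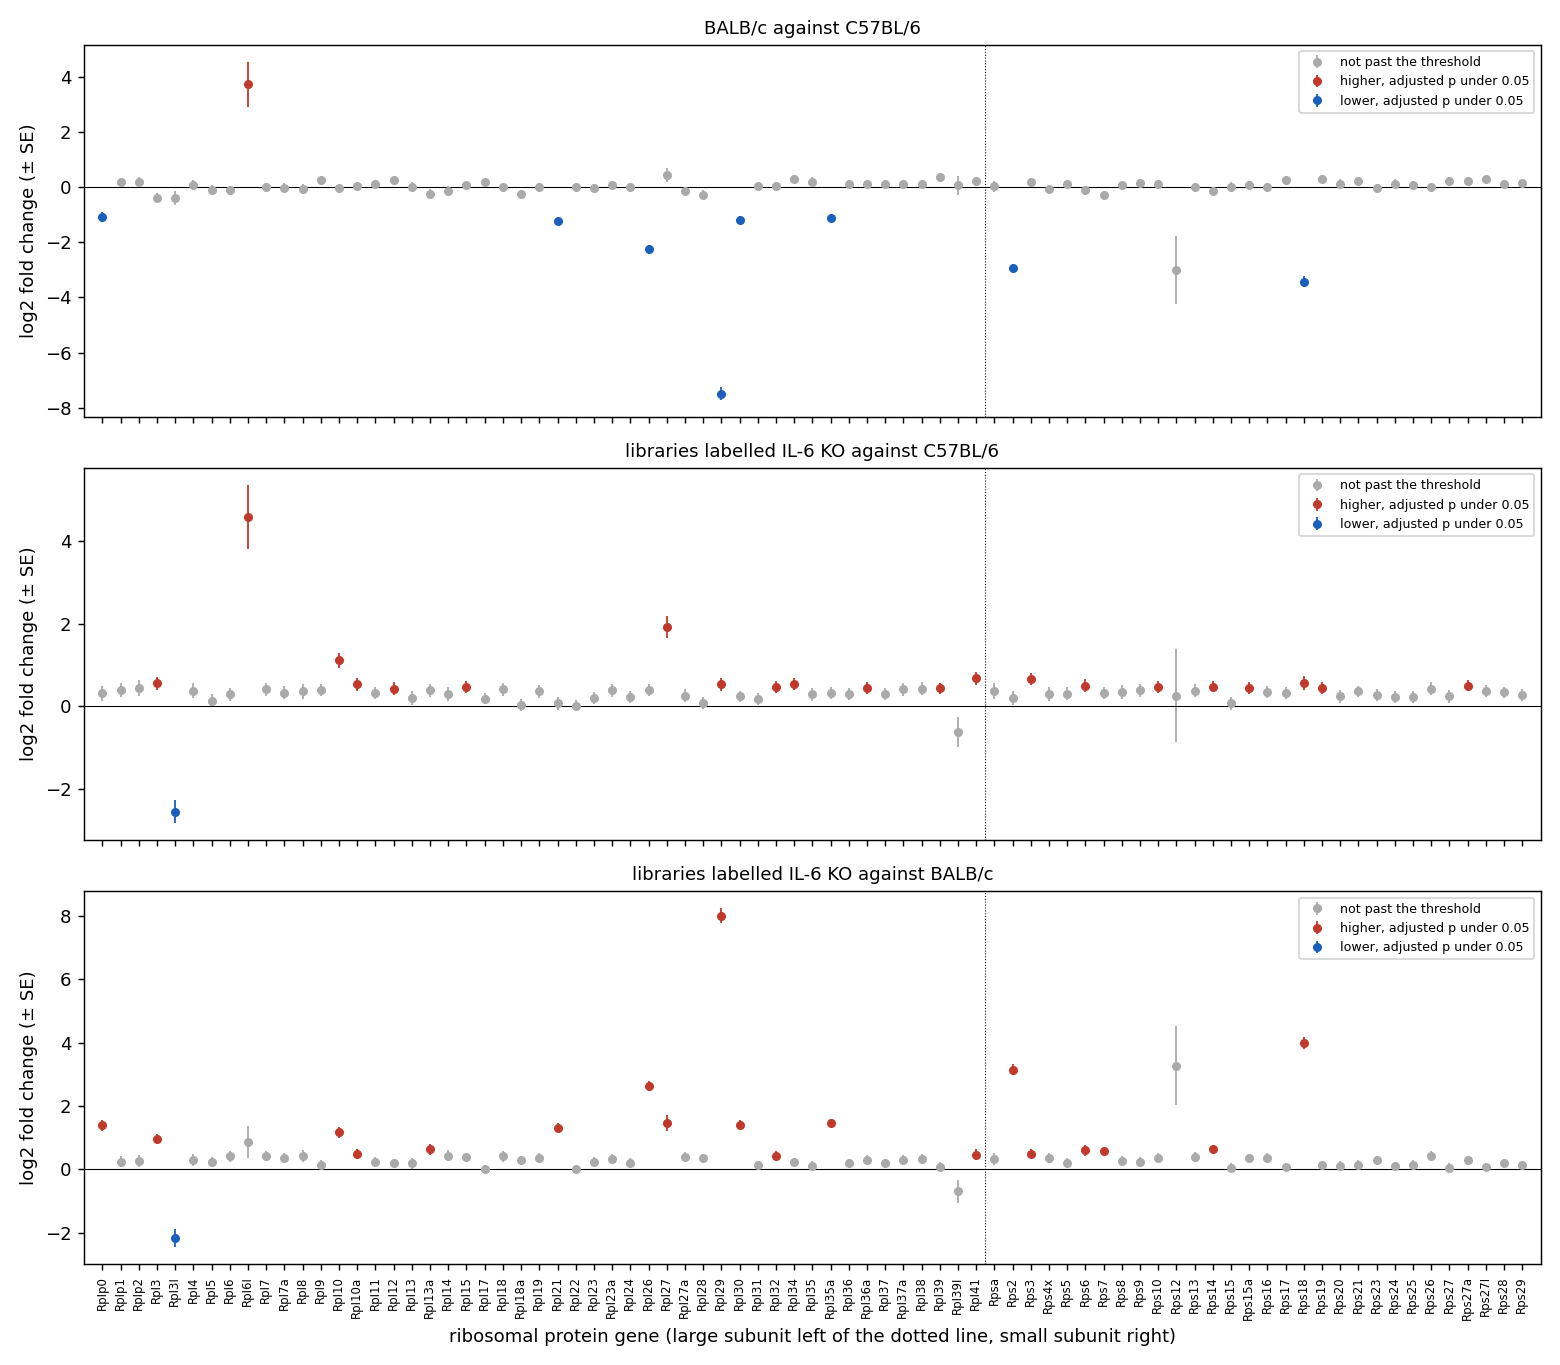
Log2 fold change ± SE from edgeR of 79 of the 80 genes tested, in 3 comparisons between groups of 3 libraries, large subunit left of the dotted line and small subunit right, coloured by call. In BALB/c against C57BL/6 most genes sit at 0 and 8 are lower, while in KO-labelled libraries against C57BL/6 most sit above 0 and Rpl3l lies at −2.56.

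In the stalk, Rplp0 (chr5:115559467-115563727), which anchors Rplp1 and Rplp2 and recruits elongation factors, had 10910, 12339 and 9793 exon reads in C57BL/6 and 4654, 5188 and 5797 in BALB/c. All BALB/c libraries lay below all C57BL/6 libraries. Scaled, this was 1779 ± 88.5 against 848 ± 100 CPM (log2 fold change −1.07 ± 0.18 SE, adjusted p = 0.0133). It no longer passed without BALB/c replicate 2 (adjusted p = 0.0814, edgeR) or replicate 3 (0.0540). Rplp1 differed by 0.17 ± 0.17 and did not pass the test.

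In the large subunit, Rpl29 (chr9:106429454-106431568), a small basic protein of the large subunit, had 2152, 2612 and 1996 exon reads in C57BL/6 and 13, 12 and 12 in BALB/c. The BALB/c libraries were thus close to empty at this gene. The log2 fold change was −7.49 ± 0.23 (adjusted p = 5.54e-07). Rpl26, which in addition binds the p53 message, had 2674, 2996 and 2451 reads against 542, 523 and 643 (−2.24 ± 0.15, adjusted p = 4.63e-05). Rpl21 had 2954, 3894 and 2884 against 1306, 1293 and 1506 (−1.23 ± 0.15, adjusted p = 0.00293). Neither gene's strains overlapped. Rpl30, which in yeast binds its own message, had 2456, 3132 and 2371 reads against 1133, 1133 and 1229 (−1.18 ± 0.14, adjusted p = 0.00274). Rpl35a, mutated in some patients with Diamond-Blackfan anaemia, had 2066, 2427 and 1874 against 934, 886 and 1067 (−1.13 ± 0.14, adjusted p = 0.00326). For these genes too, each BALB/c library lay below each C57BL/6 library.

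In the small subunit, Rps18 (chr17:33951999-33956001), a protein of the head, had 3098, 3894 and 2847 exon reads in C57BL/6 and 260, 341 and 301 in BALB/c (−3.43 ± 0.19, adjusted p = 1.39e-05). Rps2, which lies at the messenger entry, had 6305, 7155 and 5677 against 737, 797 and 925 (−2.95 ± 0.18, adjusted p = 2.66e-05). Here too the strains were far apart. The gene called higher, Rpl6l, had 1, 0 and 0 reads in C57BL/6 and 3, 7 and 8 in BALB/c (adjusted p = 0.0453). That call was lost without any 1 of 7 of the 9 libraries (highest adjusted p = 0.153, without BALB/c replicate 3).

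Some copies of these 8 genes had more reads in BALB/c. Copy entries, and host genes whose introns hold a copy, were examined where they had at least 10 CPM in any library, which gave 103 entries. By the same test on total gene reads, 23 of them were higher in BALB/c and 1 was lower, where 2.45% of all 15484 genes were higher and 2.01% lower. An entry could reach 10 CPM through BALB/c alone, as Gm8730 did, so the limit itself can raise the count of higher entries. The shares over all genes rest on another filter. Of the 23, 22 had a BALB/c mean of at least 10 CPM, and these belong to 12 genes. All 8 genes that were lower had at least 1 of the 22, 19 of their 37 entries in all, and 4 of the 72 that were not lower had one. The 22 were picked for being high in BALB/c. The number of entries examined also differed between genes, with 9 for Rpl21 and 0 for Rps3, so this contrast only describes the entries and was not tested. The entry below that limit was 6030443J06Rik, with a copy of Rpl17 in an intron and 28, 28 and 18 reads against 64, 41 and 40.

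For Rplp0, the copy Gm8730 had 1, 2 and 1 reads in C57BL/6 and 2944, 2898 and 3368 in BALB/c, all of them unique in BALB/c. That is 0.213 ± 0.0759 against 499 ± 41.5 CPM. The entry 4930525G20Rik, which overlaps the copy Gm9625, rose from 12, 8 and 14 to 655, 787 and 835 intron reads. Of these BALB/c reads, 1.58% were unique. For Rpl26, the copy Gm15772 had 2, 0 and 1 reads against 2429, 2237 and 2596, again all unique. Both copies thus had almost no reads in C57BL/6 and many in BALB/c.

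For Rpl29, 3 host genes had more reads in BALB/c. Reads and CPM given for a host gene are those of its introns, so they are not the level of that gene. Fhl2 had 20, 16 and 15 intron reads in C57BL/6 and 715, 791 and 903 in BALB/c. Plcb1 had 10, 15 and 16 against 619, 582 and 710, and Uimc1 had 80, 107 and 57 against 218, 216 and 229. For Rpl30 the host was Cnot6, with 14, 5 and 5 against 1476, 1541 and 1667 intron reads. On total gene reads the log2 fold changes were smaller: 4.14 in Fhl2, 4.16 in Plcb1, 1.87 in Uimc1 and 2.58 in Cnot6. Reads were counted per entry, and none was traced from a gene to a copy. The 90 bases shown for Gm8210 come from the Fhl2 intron. For Rpl21, the hosts Snx14 and Pnpla7 rose from 7.00 ± 0.910 to 156 ± 13.4 and from 9.38 ± 2.49 to 120 ± 11.3 CPM, and for Rpl35a the hosts Zfp862-ps, Wdr66 and Rab44 reached 121 ± 30.4, 76.9 ± 22.1 and 32.7 ± 8.13. These are genes of unrelated function that share a ribosomal copy in their introns. The unique share of these reads in BALB/c was 47.9% in Fhl2, 52.5% in Plcb1, 32.4% in Uimc1 and 47.7% in Cnot6. It was 4.06% in Snx14, 7.52% in Pnpla7, 2.23% in Zfp862-ps, 0.919% in Wdr66 and 3.16% in Rab44.

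For Rps18, 3 copies rose, namely Gm10260 from 1, 3 and 1 to 1625, 1507 and 1776 reads, Gm11361 from 5, 3 and 1 to 557, 516 and 485, and Rps18-ps3 from 0, 2 and 0 to 457, 390 and 494. For Rps2, reads appeared at Gm6311 (2, 4 and 2 against 889, 879 and 1143), at Gm6576 (1, 0 and 0 against 259, 292 and 345), and in the introns of Pde6a (0.661 ± 0.319 against 429 ± 58.6 CPM) and 3110043O21Rik (2.54 ± 0.771 against 48.2 ± 6.11). In none of these copies did the strains overlap. The unique share in BALB/c was 100% at Gm11361, but 0% at Gm10260, 0.373% at Rps18-ps3, 0.137% at Gm6311 and 0.223% at Gm6576. It was 1.67% in Pde6a and 9.99% in 3110043O21Rik.

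When the reads of each gene were added to those of its copies' own entries, 5 of the 8 were still lower, and when those of host introns were added as well, 0 of the 80 genes were lower or higher in BALB/c. The second sum was chosen after seeing the data. It takes all intron reads of a host gene, also those outside the copy, which can draw a difference toward 0. For Rpl21 the hosts held 175, 174 and 148 CPM in C57BL/6. With it, Rps18 went from 534 ± 53.2 CPM in C57BL/6 to 477 ± 20.6 in BALB/c (log2 fold change −0.16 ± 0.15, adjusted p = 0.607), in place of −3.43. Rpl29 went from 414 ± 30.3 to 310 ± 24.1 (−0.42 ± 0.17, adjusted p = 0.212), in place of −7.49. Rplp0 differed by −0.27 ± 0.17 (adjusted p = 0.437) and Rps2 by −0.24 ± 0.17 (adjusted p = 0.470). The sums of Rpl21 (0.04), Rpl26 (0.16), Rpl30 (0.06) and Rpl35a (0.14) lay above 0, the reverse of the gene alone. With unique exon reads in place of all exon reads, 10 genes were lower.

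**Figure D3:**
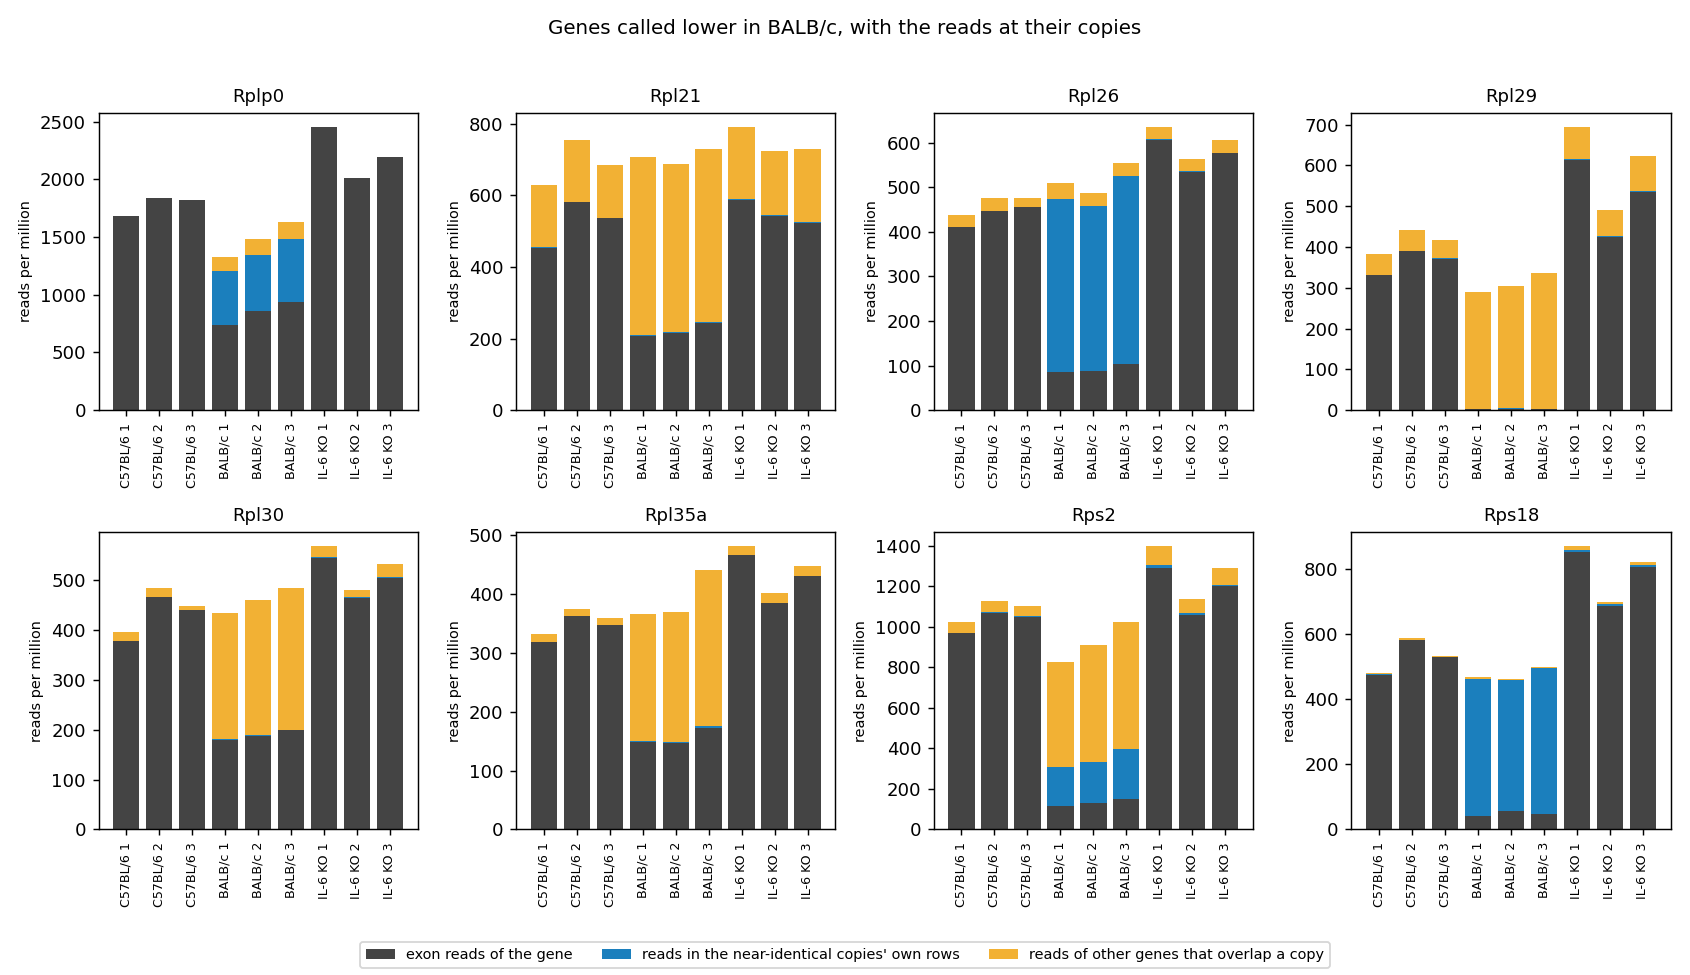
CPM in each of the 9 libraries for the 8 genes lower in BALB/c, stacked as exon reads of the gene (dark), reads in its near-identical copies' own entries (blue) and reads of other genes that overlap a copy (yellow). In BALB/c the dark part is short and the full bars of Rpl21, Rpl26, Rpl30 and Rpl35a reach those of C57BL/6.

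The reads left at the 8 genes in BALB/c were also less often unique. The unique share went from 94.1% in C57BL/6 to 78.5% in BALB/c for Rplp0, from 50.8% to 2.36% for Rpl21, from 85.7% to 22.1% for Rpl26 and from 61.2% to 48.6% for Rpl29. It went from 57.9% to 8.07% for Rpl30, from 72.3% to 6.89% for Rpl35a, from 68.5% to 4.07% for Rps2 and from 79.4% to 37.1% for Rps18. These shares sum 3 libraries and carry no test. Reads in the genes' own introns, which the copies lack, were few: summed over 3 libraries there were 104 in C57BL/6 and 166 in BALB/c at Rps18, 38 and 57 at Rplp0, 50 and 48 at Rps2, 59 and 31 at Rpl26, 22 and 18 at Rpl29, 11 and 33 at Rpl21, 7 and 15 at Rpl30, and 1 and 0 at Rpl35a. The count was higher in BALB/c at 4 of the 8 genes and lower at 4, with no test. Over all genes, introns took 6.33% ± 0.693 of gene reads in C57BL/6 and 7.83% ± 0.989 in BALB/c.

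**Figure D4:**
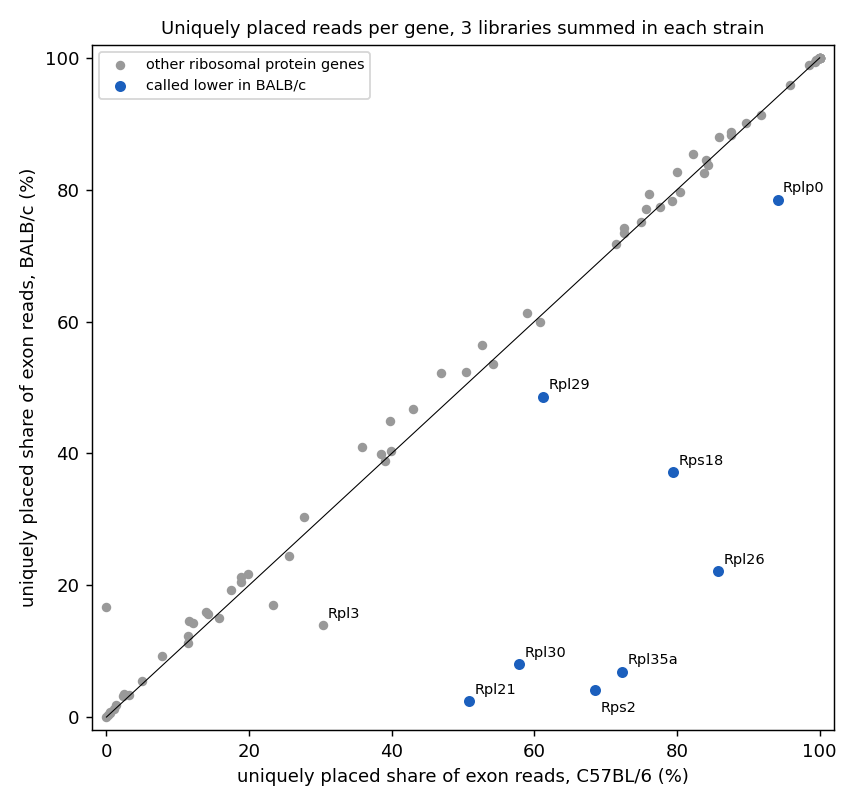
Uniquely placed share of exon reads of each gene in C57BL/6 (x axis, %) and BALB/c (y axis, %), 3 libraries summed per strain, with the line of equal shares. Most genes lie on the line and the 8 genes lower in BALB/c lie below it, as does Rpl3.

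The 4 genes that were not lower but had such an entry with a BALB/c mean of at least 10 CPM were Rpl3, Rpl7a, Rps7 and Rps12. Rpl7a and Rps7 share 1 such entry, Rpl7a-ps12, which overlaps a copy of Rps7 and had 0, 0 and 0 reads in C57BL/6 against 490, 469 and 558. Rpl3, the protein next to the peptidyl transferase centre, had 748 ± 61.2 CPM in C57BL/6 and 570 ± 34.8 in BALB/c (−0.39 ± 0.16, adjusted p = 0.212), with Rpl3-ps1 at 0.174 ± 0.187 and 131 ± 11.7. With unique reads alone Rpl3 was lower (−1.50, adjusted p = 5.76e-04 from edgeR).

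Rps12, a small-subunit protein of the beak, spread most between replicates. Its exon reads were 730, 2104 and 1260 in C57BL/6, 2, 11 and 491 in BALB/c and 1168, 1119 and 1185 in KO-labelled libraries. None of the C57BL/6 or BALB/c reads was unique. The difference between strains (−3.01 ± 1.23) did not pass the test (adjusted p = 0.222), and it did without BALB/c replicate 3 (−7.66, adjusted p = 0.00164). Its copy Rps12-ps3 had 3093, 2247 and 2076 reads in C57BL/6 and 4158, 3932 and 4115 in BALB/c, and the gene and its copies together differed by 0.15 ± 0.15 (adjusted p = 0.615).

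The libraries labelled IL-6 KO were compared with C57BL/6, the strain they share. Ribosomal protein genes took 5.72%, 5.18% and 5.67% of their exon reads, against 3.65%, 4.48% and 3.78% in C57BL/6, and the groups did not overlap (difference 1.56 percentage points, exact permutation p = 0.1, the smallest possible, 0.214 adjusted). By gene, 21 of 80 (26.2%) were higher and 1 was lower, where 19.2% of all genes were higher and 16.0% lower, 35.2% in all. The median log2 fold change was 0.36, against 0.01 over all genes, and 78 of 80 were above 0. In 57 of the 80, all libraries labelled IL-6 KO lay above all C57BL/6 libraries, as in 24.6% of all genes, and in 1 below them, as in 23.0%. The subunits were alike, with medians of 0.36 (large, 13 of 49 higher) and 0.35 (small, 8 of 31 higher).

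The shift was small for each gene, and the count of calls moved with the fit. It was 5 when only these 2 groups were fitted, 7 without a filter on low counts and 48 with DESeq2. It was 47 when libraries were scaled by their total alone, a scaling that moves the median of all genes from 0.01 to 0.15. Leaving out 1 library gave 5 to 43 higher genes: 43 without IL-6 KO replicate 2, 5 without IL-6 KO replicate 1, 6 without IL-6 KO replicate 3, and 6, 12 and 6 without C57BL/6 replicates 1, 2 and 3. Without BALB/c replicate 2 or 3, which enter the filter, the scaling and the spread but not the contrast, 9 were higher. The median stayed between 0.28 and 0.43. Hair matrix markers (12 of 12) and melanocyte markers (5 of 5) were higher and muscle markers (10 of 10) and endothelial markers (4 of 5) lower in the same libraries, and their part in this shift was not tested. In whole tissue, fewer cells of a type and less RNA per cell cannot be told apart.

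The highest-ranked genes in this comparison were Rpl27, Rpl10 and Rpl6l. Rpl27 had 53, 77 and 49 exon reads in C57BL/6 and 168, 116 and 195 in KO-labelled libraries (log2 fold change 1.92 ± 0.26, adjusted p = 9.31e-04). Rpl10, which is fitted last onto the large subunit, had 506, 703 and 545 against 792, 1126 and 842 (1.12 ± 0.18, adjusted p = 0.00178). For both, most reads lay at a copy identical over its aligned length, Rpl27-ps3 with 1329, 1622 and 1265 against 1683, 1496 and 1882 reads and Rpl10-ps3 with 609 ± 25.7 against 738 ± 27.7 CPM. Summed with the copies' own entries, Rpl27 was higher by 0.83 ± 0.17 (adjusted p = 0.00554) and Rpl10 by 0.42 ± 0.15 (adjusted p = 0.0477). Rpl6l had 1, 0 and 0 reads in C57BL/6 and 8 in each KO-labelled library (adjusted p = 0.00234). Its reads together with those of its copies, which include Rpl6, differed by 0.30 ± 0.16 and did not pass the test (adjusted p = 0.172).

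**Figure D5:**
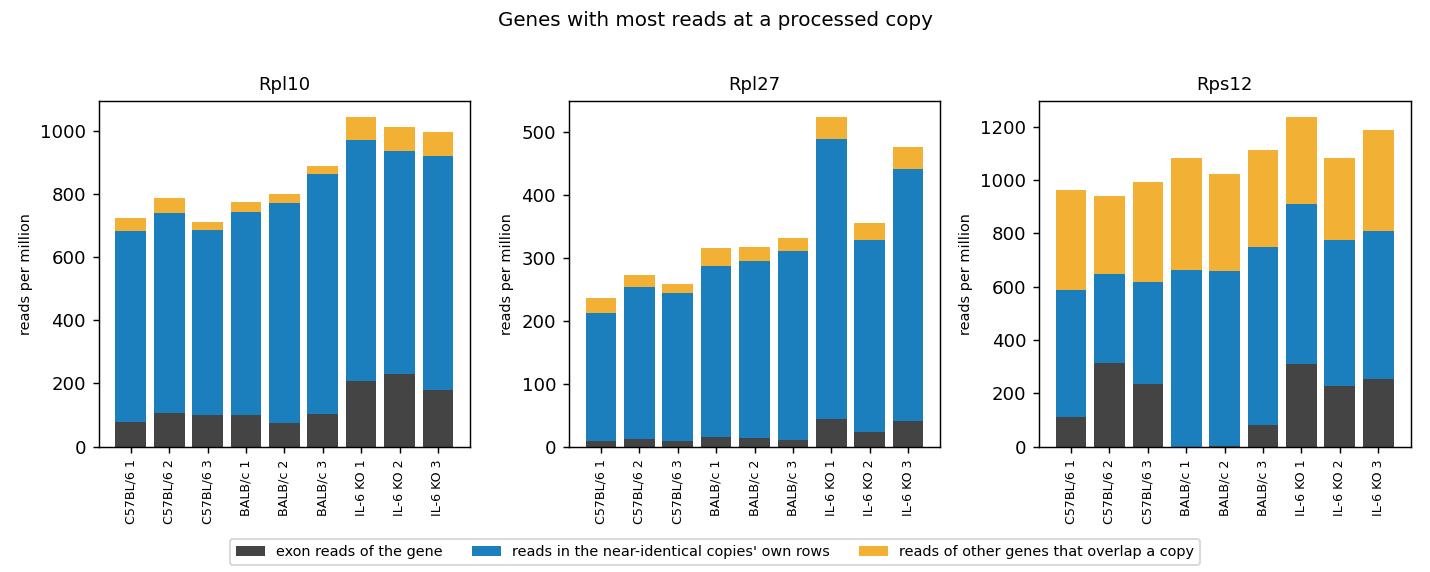
CPM per library for Rpl10, Rpl27 and Rps12, stacked as exon reads of the gene (dark), reads in its copies' own entries (blue) and reads of other genes that overlap a copy (yellow). The copies hold most reads of the Rpl10 and Rpl27 families in every library, and the dark part of Rps12 varies between replicates while the full bar varies less.

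Rps3 (chr7:99477896-99483738), which lies at the messenger entry and also acts as a repair nuclease, has no listed copy, and its reads were unique but for 1 read. It had 580, 644 and 603 CPM in C57BL/6 and 1058, 846 and 1006 in KO-labelled libraries (0.67 ± 0.15, adjusted p = 0.00914), with no overlap. Rpl41, the shortest ribosomal protein, had 565, 561 and 621 against 1036, 776 and 984 (0.68 ± 0.16, adjusted p = 0.0109). Both calls held without any 1 library (highest adjusted p = 0.0387 and 0.0451). Rpl34 was higher by 0.54 ± 0.14 (adjusted p = 0.0136), Rpl3 by 0.56 ± 0.16 (adjusted p = 0.0214) and Rps27a, which is made as a fusion with ubiquitin, by 0.50 ± 0.14 (adjusted p = 0.0219). Leaving out IL-6 KO replicate 1 ended each of these 3 calls (adjusted p = 0.0505, 0.0634 and 0.0691). Those of Rpl3 and Rps27a were also lost without IL-6 KO replicate 3 (0.0752 and 0.0749) or without C57BL/6 replicate 1 (0.0725 and 0.0719) or 3 (0.0684 and 0.0576).

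The gene that was lower, Rpl3l (chr17:24727820-24736143), replaces Rpl3 in heart and skeletal muscle ribosomes. It had 1195, 1129 and 1483 reads in C57BL/6, 639, 1195 and 1086 in BALB/c and 142, 160 and 172 in KO-labelled libraries, all unique. The last 3 lay well below all others. Rpl3l was lower than in C57BL/6 by −2.56 ± 0.28 on the log2 scale (adjusted p = 4.79e-04). The value for BALB/c was −2.16 ± 0.28 (adjusted p = 6.56e-04). The summed level of the 10 muscle markers, given above, was lower in the same libraries, by a median of −2.74 and −2.10 over the markers, and its part in the Rpl3l difference was not tested. In the same skin, Rpl3 had 748 ± 61.2 CPM in C57BL/6 and 1103 ± 103 in KO-labelled libraries.

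The other paralogs were less marked. Rpl39l, known mainly from testis, had 53, 52 and 33 reads in C57BL/6, 56, 44 and 43 in BALB/c and 8, 36 and 22 in KO-labelled libraries. It did not pass the test against C57BL/6 (−0.62 ± 0.37, adjusted p = 0.216), and without IL-6 KO replicate 2 it did (−1.08, adjusted p = 0.0293). Its partner Rpl39 was higher by 0.44 ± 0.13 (adjusted p = 0.0263, at most 0.0905 without 1 library). Rps27l, a target of p53, stood at 71.4 ± 7.63 CPM (C57BL/6), 87.1 ± 6.87 (BALB/c) and 92.3 ± 10.9 (KO-labelled), and Rps27 had 360 ± 36.2, 415 ± 29.5 and 426 ± 39.0. The X-linked Rps4x had 1035 ± 76.5, 984 ± 70.7 and 1274 ± 105. None of these 3 passed the edgeR test in any comparison. Against C57BL/6, Rps27l passed without IL-6 KO replicate 2 (adjusted p = 0.0329), with scaling by library size alone (0.0224) and with DESeq2 (0.0488). Rps4x passed with DESeq2 against C57BL/6 (0.0375) and BALB/c (0.00972). Rpl10l and Rps4l, at 0 reads, allow at most 3 reads per library by counting error alone, and the 6 testis germ cell markers summed to at most 0.615 CPM in any library.

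Against BALB/c, KO-labelled libraries had 19 of 80 genes higher and 1, Rpl3l, lower, where 19.9% of all genes were higher and 17.4% lower, 37.3% in all. In 46 of the 80 they lay wholly above BALB/c and in 1 below, as in 26.7% and 24.0% of all genes. Of the 19, the 8 of lowest p-value were the same 8 genes that were lower in BALB/c than in C57BL/6, and both comparisons use the BALB/c libraries. Rpl29 had 2.00 ± 0.0621 CPM in BALB/c and 524 ± 95.1 in KO-labelled libraries (8.01 ± 0.23, adjusted p = 3.43e-07). With copies and host introns added, 13 were higher, Rpl29 differed by 0.96 ± 0.17 (adjusted p = 0.00249), Rps18 by 0.74 ± 0.15 (adjusted p = 0.00570) and Rplp0 by 0.59 ± 0.18 (adjusted p = 0.0268). Rpl21 (0.08), Rpl26 (0.22), Rpl30 (0.20), Rpl35a (0.18) and Rps2 (0.47, adjusted p = 0.0509) then did not pass. The median of the 80 was 0.33, or 0.27 with copies and hosts.

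Genes around the ribosome were read from lists chosen with results of these data known, and their counts stand beside 19.2% of all genes higher and 16.0% lower against C57BL/6. How these counts move when 1 library is left out was not tested. Against C57BL/6, 7 of 8 ribosomal protein and related genes with names outside the rule were higher in KO-labelled libraries and 0 lower (median 0.48). The 8 hold Rack1, Rpl7l1 and Rps27rt, and Rps27rt is also a listed copy of Rps27, identical over 341 bases. Among the 7 was Rpl22l1, a paralog of Rpl22, which rose from 67.1 ± 5.42 to 146 ± 27.1 CPM (1.12 ± 0.15, adjusted p = 9.31e-04 from edgeR). Fau, a fusion of a ribosomal protein with a ubiquitin-like part, was higher by 0.70 (adjusted p = 0.0152). Of 17 translation factors and related genes whose messages start with a pyrimidine tract, 6 were higher and 0 lower (median 0.29), among them Pabpc1, the poly(A)-binding protein, from 276 ± 31.9 to 603 ± 132, and Npm1, a nucleolar chaperone, from 235 ± 22.2 to 462 ± 103.

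Of 45 ribosome biogenesis genes, 24 were higher and 0 lower (median 0.58), led by Utp20, a processome protein (0.81 ± 0.13, adjusted p = 0.00146), and Nhp2, a protein of H/ACA particles (1.05 ± 0.18, adjusted p = 0.00227). Of 20 regulators, 5 were higher and 3 lower, near the shares over all genes (19.2% and 16.0%). Mycn, a growth-promoting transcription factor, had 6, 7 and 7 reads in C57BL/6 and 154, 32 and 153 in KO-labelled libraries. Tsc2, which restrains mTOR, was lower by −0.69 ± 0.11 (adjusted p = 0.00199), and Maf1, which represses RNA polymerase III, by −0.59 ± 0.13 (adjusted p = 0.00855). Rheb was lower as well (−0.42 ± 0.11, adjusted p = 0.0189 from edgeR). Besides Mycn, the genes that were higher were Larp4 (0.86 ± 0.20, adjusted p = 0.00869) and Rps6kb2 (0.60 ± 0.14, adjusted p = 0.0110). Eif4e (0.69 ± 0.17, adjusted p = 0.0129) and Gabpa (0.54 ± 0.15, adjusted p = 0.0217) were higher too. Mtor itself (0.06 ± 0.12) and Rptor (−0.12 ± 0.12) did not pass the test. Beside the same shares, of 14 p53 targets tested, 5 were higher and 1 lower, Ccng1 (−1.92 ± 0.30, adjusted p = 0.00168 from edgeR). Among the 5 were Trp53inp1 (1.39 ± 0.26, adjusted p = 0.00336), Sesn2 (0.88 ± 0.20, adjusted p = 0.00947) and Cdkn1a (0.62 ± 0.19, adjusted p = 0.0318). The mitochondrial ribosomal proteins, which serve a separate ribosome, had 1 of 77 higher and 7 lower (median −0.14).

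Between BALB/c and C57BL/6 the same lists held almost no call, near the shares over all genes (1.63% higher and 1.78% lower). None of the 8 other ribosomal protein and related genes, 17 factors or 45 biogenesis genes passed the edgeR test. Of the 20 regulators Tsc2 alone was lower (−0.51 ± 0.11, adjusted p = 0.0444). Of the 77 mitochondrial ribosomal protein genes, 2 were higher and 0 lower (median 0.15).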

How the data were processed

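RNA from 9 skin libraries was analysed from the deposited gene tables. Per the file headers, these hold read counts per gene (total and unique exon, exon-exon and intron reads) and each gene's exon length in bases, another deposited value, and per the submitters' processing notes the build is GRCm38. For aligner and counter, the name and settings were not given in the sources used here. Of 3 tables stacked in 1 file the first was used. Depth was 3843953 to 6882193 exon reads.

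Counts were tested with edgeR 4.0.16 in R 4.3.3: all 9 libraries, 1 coefficient per group, filterByExpr (minimum count 10, minimum total 15), TMM scaling, the quasi-likelihood F test, and Benjamini-Hochberg adjustment over 14415 genes with a threshold of 0.05. Standard errors were obtained as the absolute fold change on the log2 scale over the root of F. The test was tried on simulated counts. Shares were compared by exact permutation over libraries. CPM were scaled by TMM, and RPKM were computed from exon reads and exon length. Copies were found with blastn 2.17.0 among GENCODE vM21 transcripts (at least 95% identity over 200 bases and 40% of the shorter transcript). All 82 genes are in that annotation, 68 with the same start and end. Host reads are intron reads of a gene that overlaps a copy.

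Named genes are, per comparison, the 8 called members of lowest p in each direction, the 5 highest and 5 lowest levels, the 6 lowest unique shares, paralogs with their partners, and up to 4 called genes of each list. Rpl6, Rpl7a, Rps7, Rheb, Mtor, Rptor, Rps6kb2, Eif4e, Gabpa, Krt10, Krt15, host genes and the copies were named after their values were seen. Members and lists were chosen with earlier results of these data known. A few items are not reported here, and 1 gene is left out of the plots over all genes.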

Additional observations from a re-analysis of the deposited data

Results flagged for a closer look

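Signal appeared in entries outside the ribosomal protein genes themselves, above its level in the C57BL/6 libraries. These are processed copies, or genes with a copy in an intron, that were higher in BALB/c by the edgeR test, with a BALB/c mean of at least 100 CPM and at least 10 times the C57BL/6 mean. The copies were Gm8730 (499 CPM) for Rplp0, Gm15772 (393) for Rpl26, Gm10260 (266) for Rps18, Gm6311 (158) for Rps2 and Rpl3-ps1 (131) for Rpl3. The host genes, with the CPM of their intron reads, were Pde6a (429) for Rps2, Cnot6 (254) for Rpl30, and Snx14 (156) and Pnpla7 (120) for Rpl21. The others were Fhl2 (131) and Plcb1 (103) for Rpl29, 4930525G20Rik (124) for Rplp0 and Zfp862-ps (121) for Rpl35a. Rps12-ps3 was also higher (399 against 661 CPM) but by less than 10 times.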

How the results depend on the processing

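Of 1117 values recomputed under other settings, 981 kept their direction and side of the threshold. Higher genes in BALB/c against C57BL/6 numbered 0 with no filter, a replicate block, only the groups compared, unique reads or either sum with copies, and 2 with DESeq2. Lower genes numbered 5 summed with copies and 0 with hosts as well. Against C57BL/6, genes higher in KO-labelled libraries numbered 47 scaled by library size alone (median 0.49), 7 with no filter, 5 with only these groups, 48 with DESeq2 and 6 with the replicate block. Against BALB/c they numbered 38 with DESeq2. Same-numbered libraries deviated together with correlations from −0.212 to 0.0617, so the numbers were not taken as pairs. The block gave 7 lower genes in BALB/c and 16 higher against BALB/c. Leaving out 1 library gave 0 to 1 higher and 7 to 8 lower genes for BALB/c, 5 to 43 higher and 1 to 2 lower against C57BL/6, and 13 to 38 higher and 1 to 2 lower against BALB/c. The share of exon reads in these genes differed by 1.15 (against C57BL/6) and 1.26 points (against BALB/c) in unique reads, and by 1.36 against BALB/c in the deposited Expression value. Without the gene of most reads, the unique share differed by −0.704 points between strains and 1.80 between KO-labelled libraries and BALB/c. Reversed for BALB/c against C57BL/6 were Rpl26 (0.15) and Rpl6l (−0.12) when summed with copies. With host introns added as well, Rpl21 (0.04), Rpl26 (0.16), Rpl30 (0.06), Rpl35a (0.14) and Rpl6l (−0.13) were reversed. In KO-labelled libraries against BALB/c, Rps6 was reversed with unique reads (−0.16). None of these reversed values passed the test. These moves follow from reads being added or dropped for the sums and unique reads. For the others the cause was not tested. Few reads limit Rpl6l and Rpl39l.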
